A study of Mus musculus with 12 samples.

Results

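The genes described here are 10 components of NF-kB and tumour necrosis factor (TNF) receptor signalling: Nfkb1, Nfkb2, Rela, Relb, Nfkbia, Nfkbie, Tnfaip3, Tnfrsf1a, Tnfrsf1b and Tnfrsf12a. They were chosen by name with earlier results of these data known, and found by their symbols among the 23238 different gene symbols measured. Their counts beside those of all tested genes are therefore descriptions and not independent tests. Kidney RNA of C57BL/6 mice was profiled by QuantSeq, which reads the 3′ ends of polyadenylated transcripts. The 12 libraries fell into 3 groups of 4. Control libraries came from mice labelled as controls, CKD libraries from mice that had chronic kidney disease, and CKD TRF libraries from diseased mice kept on time restricted feeding, a regime in which food is given for part of the day only. The labels name no genotype, agent, age or sex, and do not give how the disease was induced, the feeding hours or the sampling time. Nothing says that the libraries are separate animals, so a p-value here measures only how libraries of a group vary, which may be technical variation.

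NF-kB is a family of transcription factors that bind DNA as dimers and are held in the cytoplasm by IkB proteins until a signal, such as TNF binding to its receptors, activates the IkB kinase and the IkB protein is degraded. The genes of several IkB proteins and of the ubiquitin-editing enzyme Tnfaip3 are themselves targets of NF-kB and so form negative feedback. In the kidney the pathway is known from injured tubular cells, endothelium and infiltrating leukocytes.

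Levels are given as scaled reads, which are the deposited log2 values raised back from log2 of a scaled read number plus 1. Changes are differences between group means on the deposited log2 scale, given ± SE from limma with 4 libraries a group, and they understate the change of genes near 0. A gene is said to have risen or fallen where limma's Benjamini-Hochberg adjusted p, taken over 13943 tested genes, was below 0.05. The libraries held 10989969 to 17209879 reads, with 10989969 to 12810915 in Control and 14145757 to 17209879 in the 8 diseased libraries, and all 10 genes were among those tested. Markers of each nephron segment searched for were present in all 12 libraries. Of the 8 diseased libraries, 5 (CKD 2 and 4, CKD TRF 1, 3 and 4) held fat markers, whose summed level over a group's libraries was 15.2 to 574 scaled reads for CKD and 15.7 to 214 for CKD TRF against 23.1 to 46.9 for Control. The rule was a mean log2 value of these markers more than 1 above that of the highest Control library (0.92). CKD 1 and CKD 3, at 1.41 and 1.01, lay above Control but did not meet it, and CKD TRF 2 stood at 0.57. Counts of the 10 genes and of the pathway lists against Control are also given without the 5 libraries that met this rule, which leaves CKD 1, CKD 3 and CKD TRF 2. CKD TRF is then a single library that is assumed to vary like the other groups.

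In CKD kidneys 9 of the 10 genes rose against Control and none fell, and for 9 genes all 4 CKD libraries lay above all 4 Control libraries. Relb, the partner subunit of the alternative NF-kB pathway, had the largest change (1.57 ± 0.24) and Tnfrsf12a, the receptor of the cytokine TWEAK, did not pass (0.00 ± 0.21). The median change of the 10 genes was 0.92, beside 0.02 over all tested genes. Of all tested genes 23.6% rose and 20.3% had CKD libraries that all lay above the Control libraries. Without the 5 libraries that held fat markers 8 of the 10 rose, and Tnfaip3 was the one lost.

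**Figure D1:**
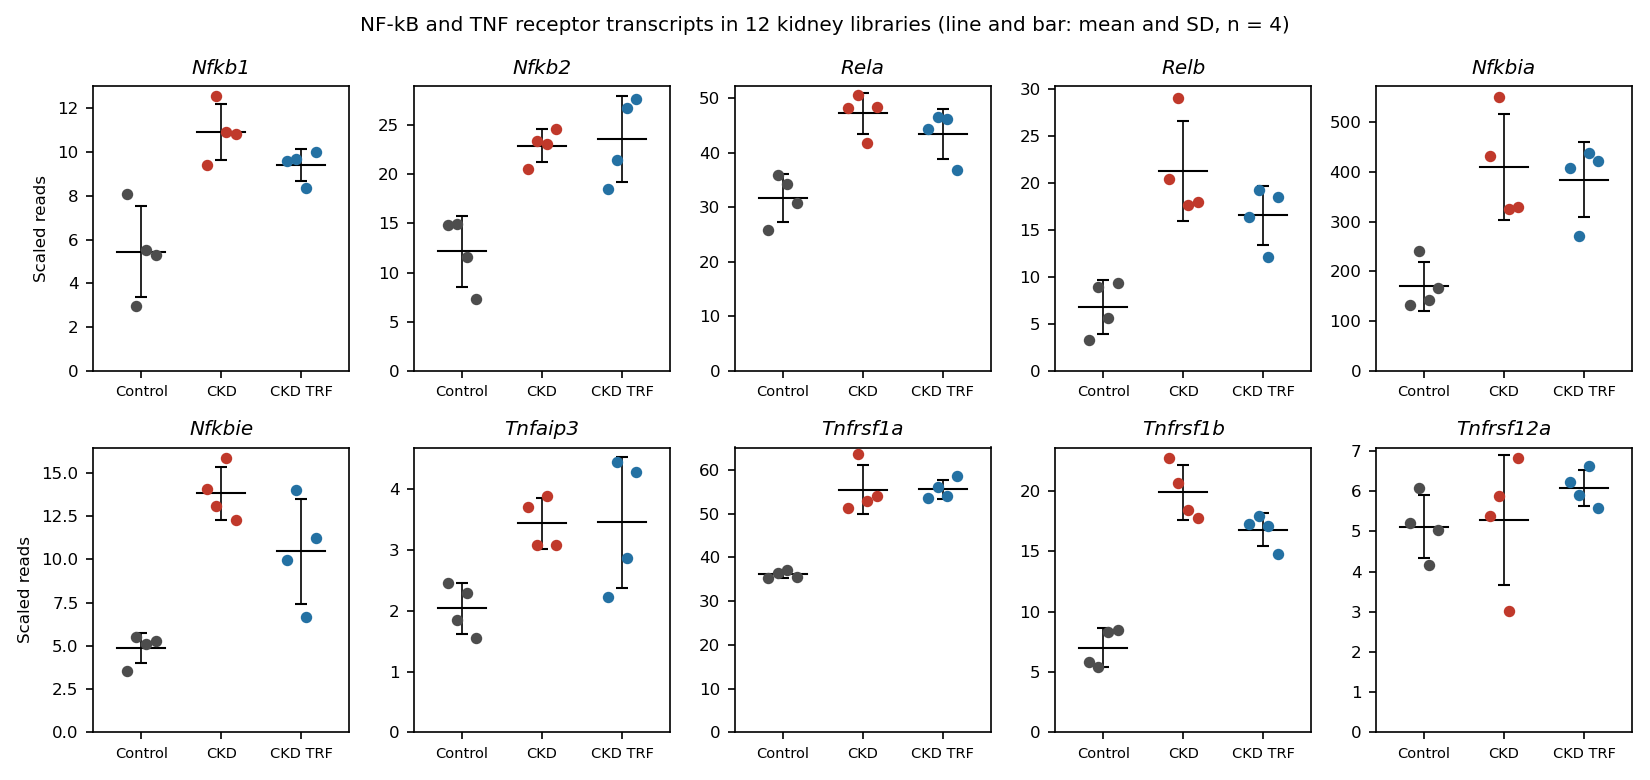
Scaled reads of each of the 10 genes in the 12 libraries, on axes that start at 0. Points are libraries in order of number within Control (grey), CKD (red) and CKD TRF (blue), and the line and bar are the mean and SD (n = 4). All CKD points lie above all Control points except for Tnfrsf12a, whose CKD libraries run from 3.02 to 6.82 scaled reads around the Control range of 4.17 to 6.08.

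Promoter sequence is shown first, for the genes among these 10 whose window held a close match to the NF-kB binding motif. RefSeq promoter windows (build GRCm38.p6, 250 bases before to 50 after a gene's start) matched 8 of the 10 genes, with 11 windows. The motif was searched as GGGNNNNNCC (GGNNNNNCCC on the other strand) and in a stricter form as GGGNNNTTCC (GGAANNNCCC on the other strand), on both strands, where every strict match is also a match of the wider form. All 8 genes held the wider form, beside 53.5% of the 27025 genes with a window (50.8% of all 32851 windows). The strict form was found in 4 of the 8 genes, Nfkbia, Nfkbie, Nfkb2 and Tnfaip3, beside 6.31% of genes (5.56% of windows). These are matches of letters and were not tested for binding.

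The bases upstream of Nfkbia and Nfkbie are given whole because they show where the match lies relative to the start, and GENCODE M21 places no exon in either. Nfkbia's lie at chr12:55492648-55492897 on the minus strand, and those of Nfkbie at chr17:45555450-45555699 on the plus strand. For Nfkb2 and Tnfaip3, which have several annotated starts, short stretches around a match are given: Nfkb2 at chr19:46304689-46304718 and chr19:46305695-46305724 (plus strand) and Tnfaip3 at chr10:19015403-19015432 (minus strand). All run 5′ to 3′ on the strand of the gene, with the strict match in capitals.
Nfkbia: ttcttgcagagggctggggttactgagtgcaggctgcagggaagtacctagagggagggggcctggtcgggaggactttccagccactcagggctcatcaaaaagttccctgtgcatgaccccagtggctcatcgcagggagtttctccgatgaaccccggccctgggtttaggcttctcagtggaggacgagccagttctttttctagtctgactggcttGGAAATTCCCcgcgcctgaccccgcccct
Nfkbie: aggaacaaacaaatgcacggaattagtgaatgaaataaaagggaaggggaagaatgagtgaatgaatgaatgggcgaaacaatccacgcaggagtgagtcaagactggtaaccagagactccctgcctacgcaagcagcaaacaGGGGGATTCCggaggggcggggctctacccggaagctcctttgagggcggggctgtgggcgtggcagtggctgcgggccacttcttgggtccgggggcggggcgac
Nfkb2, first start: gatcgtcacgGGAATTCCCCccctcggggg
Nfkb2, second start: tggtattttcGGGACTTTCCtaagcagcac
Tnfaip3: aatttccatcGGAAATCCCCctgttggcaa
The match in Nfkbia began 29 bases before the start and was on the strand opposite to the gene. So were the one shown for Tnfaip3, 12 bases before the start, and the first shown for Nfkb2, 38 bases before. For Tnfaip3 and Nfkb2, GENCODE M21 begins the gene further upstream and places an exon of it in the bases before this RefSeq start. These matches of Tnfaip3 and Nfkb2 thus lie inside the gene as annotated there. That of Nfkbie began 106 bases before the start on the strand of the gene. The second match shown for Nfkb2 began 10 bases after the RefSeq start, inside the transcript.

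Among the DNA-binding subunits, all 4 measured here rose in CKD. Relb (chromosome 7, 19606217 to 19629438, minus strand, mm10) forms dimers with the processed product of Nfkb2. Relb stood at 3.27, 8.94, 5.61 and 9.32 scaled reads in Control 1 to 4, at 20.4, 29.0, 17.6 and 17.96 in CKD 1 to 4 and at 16.3, 19.2, 12.2 and 18.5 in CKD TRF 1 to 4. Every diseased library lay above every Control library, with CKD 2 the highest of the 12 and Control 1 the lowest. The mean went from 6.78 ± 2.88 scaled reads in Control to 21.3 ± 5.32 under CKD and 16.5 ± 3.17 under CKD TRF (SD, n = 4). The change was 1.57 ± 0.24 in CKD against Control (limma adjusted p = 2.6e-05) and 1.24 ± 0.24 in CKD TRF against Control (4.2e-04).

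Nfkb2 (chromosome 19, 46304320 to 46312385, plus strand) encodes the precursor of that DNA-binding subunit of the alternative pathway. In Control 1 to 4 Nfkb2 was measured at 14.8, 14.9, 11.6 and 7.31 scaled reads, in CKD 1 to 4 at 20.6, 23.4, 23.0 and 24.6 and in CKD TRF 1 to 4 at 18.5, 21.4, 26.7 and 27.7. The diseased libraries all exceeded the Control libraries, and CKD and CKD TRF overlapped. The rise was 0.91 ± 0.19 in CKD (limma adjusted p = 5.3e-04) and 0.93 ± 0.19 in CKD TRF (5.6e-04). Psd, a protein coding gene on the opposite strand, overlaps the 3′ end of Nfkb2 and rose as well (1.15 ± 0.21 in CKD against Control, limma adjusted p = 2.1e-04). The strand setting of the counting is not stated, so reads of these genes cannot be told apart; Psd had 13 to 125 reads per library and Nfkb2 80 to 448.

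Nfkb1 (chromosome 3, 135584655 to 135691547, minus strand) encodes the precursor of the DNA-binding subunit of the classical pathway. The Control libraries held 8.07, 2.95, 5.53 and 5.30 scaled reads of Nfkb1, the CKD libraries 9.40, 12.5, 10.9 and 10.8 and the CKD TRF libraries 9.60, 9.67, 8.34 and 9.99, each in order of library number. Control 1 was close to the diseased libraries and Control 2 was the lowest, but Control did not overlap with either diseased group. CKD and CKD TRF overlapped. The change was 0.94 ± 0.21 in CKD (limma adjusted p = 0.0011) and 0.75 ± 0.21 in CKD TRF (0.0078).

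Rela (chromosome 19, 5637483 to 5648130, plus strand) encodes the transactivating subunit of the classical pathway. In Control 1 to 4 Rela was measured at 25.9, 36.0, 34.3 and 30.9 scaled reads, in CKD 1 to 4 at 48.2, 50.6, 41.8 and 48.5 and in CKD TRF 1 to 4 at 44.5, 46.6, 46.1 and 36.8. CKD TRF 4, the lowest diseased library, lay just above Control 2, the highest of its group. The mean went from 31.8 ± 4.44 to 47.2 ± 3.79 under CKD and 43.5 ± 4.57 under CKD TRF (SD, n = 4), changes of 0.57 ± 0.12 and 0.45 ± 0.12 (limma adjusted p = 8.7e-04 and 0.0069). Relb rose by 1.01 more than Rela on the log2 scale in CKD against Control, and the per-library difference of the 2 genes did not overlap between the groups. Its exact two-sided permutation p was 0.0286, the smallest that 4 against 4 libraries can give. After Benjamini-Hochberg adjustment over the 18 such differences computed it was 0.114 and did not pass. An adjusted p below 0.05 would have needed most of the 18 to stand at this smallest p. This test could therefore hardly be passed, and no conclusion is drawn from its outcome. Nfkb2 and Nfkb1 differed in their changes by -0.03 (exact permutation p = 0.971).

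The inhibitors rose too, and the call of Tnfaip3 depended on the processing. Nfkbia (chromosome 12, 55489410 to 55492647, minus strand) encodes IkB-alpha, the main cytoplasmic inhibitor, and is 1 of the 4 genes with a strict motif match. Nfkbia stood at 132, 241, 143 and 166 scaled reads in Control 1 to 4, at 432, 551, 325 and 330 in CKD 1 to 4 and at 408, 272, 438 and 421 in CKD TRF 1 to 4. All diseased libraries were above all Control libraries, and within groups Control 2 and CKD 2 were the highest and CKD TRF 2 the lowest. The mean rose from 170 ± 48.9 to 410 ± 106 scaled reads under CKD and 385 ± 76.4 under CKD TRF (SD, n = 4). The changes were 1.27 ± 0.18 and 1.19 ± 0.18 (limma adjusted p = 1.6e-05 and 5.0e-05). Nfkbia rose by 0.70 more than Rela in CKD against Control without overlap. This did not pass over the 18 differences (exact permutation p = 0.0286, adjusted 0.114), a test that could hardly be passed, as said for Relb and Rela.

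Within groups, genes could be picked that were high or low in the same libraries as Nfkbia. After subtracting group means, the 3 tested genes closest to Nfkbia over the 12 libraries, named here after their values were seen, were Dusp1 (Pearson r = 0.938), Rhob (0.937) and Ppp1r15a (0.922). Dusp1 is a phosphatase of MAP kinases, Rhob a small GTPase and Ppp1r15a a phosphatase subunit of the stress response, and all are known as rapidly induced genes. These points share library and depth, and r is a description of these 12 libraries. In Control 2 Nfkbia lay 0.54 above its group mean and Dusp1 1.29 above. In CKD TRF 2 Nfkbia lay at -0.48 from its mean, Dusp1 at -0.67, Rhob at -0.57 and Ppp1r15a at -0.32. CKD TRF 2 was also the only CKD TRF library that did not meet the rule for fat markers. The part of these genes or of fat RNA in the spread of Nfkbia was not tested.

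**Figure D2:**
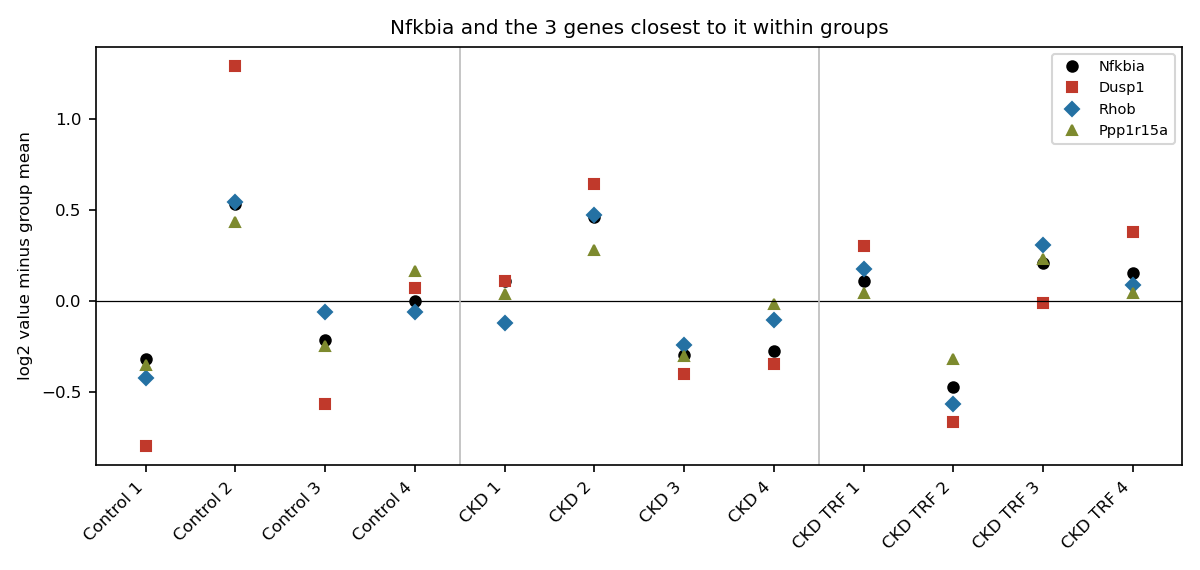
Deviation of each library's log2 value from its group mean (y axis) for Nfkbia (circles), Dusp1 (squares), Rhob (diamonds) and Ppp1r15a (triangles) in the 12 libraries (x axis), with grey lines between the groups. Dusp1, Rhob and Ppp1r15a were picked for their correlation with Nfkbia within groups. All 4 genes are above their mean in Control 2, CKD 2, CKD TRF 1 and CKD TRF 4 and below it in Control 1, Control 3, CKD 3, CKD 4 and CKD TRF 2, where Nfkbia is at -0.48.

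Nfkbie (chromosome 17, 45555703 to 45563169, plus strand) encodes IkB-epsilon, which also holds NF-kB dimers in the cytoplasm. The Control libraries held 3.57, 5.53, 5.10 and 5.30 scaled reads of Nfkbie, the CKD libraries 14.1, 13.1, 15.8 and 12.3 and the CKD TRF libraries 9.96, 14.0, 6.67 and 11.2, each in order of library number. Both diseased groups lay above Control, while in CKD TRF the libraries spread from 6.67 to 14.0 and overlapped with CKD. The change was 1.34 ± 0.20 in CKD (limma adjusted p = 1.9e-05) and 0.94 ± 0.20 in CKD TRF (9.6e-04). Between CKD TRF and CKD it was -0.40 ± 0.20 (95% confidence interval -0.82 to 0.01, limma adjusted p = 0.786), the largest difference among the 10 genes in that comparison.

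Tnfaip3 (chromosome 10, 19000910 to 19015657, minus strand), the ubiquitin-editing enzyme that switches off TNF receptor signalling, was measured at 17 to 67 reads per library. In Control 1 to 4 Tnfaip3 was measured at 2.45, 1.84, 2.30 and 1.55 scaled reads, in CKD 1 to 4 at 3.70, 3.08, 3.89 and 3.08 and in CKD TRF 1 to 4 at 2.22, 4.44, 2.86 and 4.27. CKD lay above Control without overlap, whereas CKD TRF 1 fell inside the Control range. The change of 0.55 ± 0.22 in CKD against Control was near the threshold (limma adjusted p = 0.0461). It was not called in 13 of 25 alternatives, at adjusted p from 0.0531 to 0.512, the highest under quantile normalization with a change of 0.19. These 13 include the fits without Control 2, 3 or 4 or any of CKD 1 to 4, at adjusted p from 0.0531 to 0.117. In CKD TRF the change was 0.53 ± 0.22 and did not pass (0.0654). It passed in 3 of 25 alternatives, among them the fit without CKD TRF 1 (0.0283).

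The receptors gave differing values. Tnfrsf1a (chromosome 6, 125349362 to 125362484, plus strand) encodes the widely expressed TNF receptor with a death domain. Tnfrsf1a stood at 35.3, 36.4, 37.2 and 35.5 scaled reads in Control 1 to 4, at 51.4, 63.7, 52.8 and 53.9 in CKD 1 to 4 and at 53.6, 56.0, 54.0 and 58.5 in CKD TRF 1 to 4. Control libraries lay close together and below every diseased library. The mean went from 36.1 ± 0.841 to 55.4 ± 5.58 under CKD and 55.5 ± 2.22 under CKD TRF (SD, n = 4), and the changes were 0.60 ± 0.10 and 0.61 ± 0.10 (limma adjusted p = 6.9e-05 and 9.2e-05). Plekhg6, whose exon lies within 300 bases of this 3′ end on the other strand, did not pass (-0.36 ± 0.24, adjusted p = 0.238).

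Tnfrsf1b (chromosome 4, 145213463 to 145246870, minus strand) encodes the TNF receptor without a death domain, known from leukocytes, endothelium and injured tubules. The Control libraries held 5.82, 5.44, 8.33 and 8.49 scaled reads of Tnfrsf1b, the CKD libraries 22.7, 20.6, 18.4 and 17.7 and the CKD TRF libraries 17.3, 17.9, 17.1 and 14.8, each in order of library number. Every diseased library was above every Control library, and CKD TRF overlapped with CKD. The mean rose from 7.02 ± 1.62 to 19.9 ± 2.27 under CKD and 16.8 ± 1.37 under CKD TRF (SD, n = 4), changes of 1.39 ± 0.16 and 1.17 ± 0.16 (limma adjusted p = 1.1e-06 and 1.4e-05). Tnfrsf1b rose by 0.79 more than Tnfrsf1a in CKD against Control and by 0.56 more in CKD TRF against Control, both without overlap. Neither passed over the 18 differences (exact permutation p = 0.0286 each, adjusted 0.114), where a pass was hardly possible, as said for Relb and Rela.

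Tnfrsf12a (chromosome 17, 23675445 to 23677468, minus strand) encodes the TWEAK receptor, which is known to be induced in injured tissue. In Control 1 to 4 Tnfrsf12a was measured at 5.21, 6.08, 4.17 and 5.03 scaled reads, in CKD 1 to 4 at 5.38, 5.88, 3.02 and 6.82 and in CKD TRF 1 to 4 at 6.23, 5.90, 6.62 and 5.58. The groups overlapped in every comparison, and CKD 3 and CKD 4 were the lowest and the highest of the 12 libraries. The change was 0.00 ± 0.21 in CKD against Control, with a 95% confidence interval of -0.43 to 0.44 (limma adjusted p = 0.992), so a rise of the size seen for Tnfrsf1a lies outside it. In CKD TRF it was 0.22 ± 0.21 against Control (0.439). An exon of Hcfc1r1 lies within 300 bases of its 3′ end on the other strand; Hcfc1r1 had 842 to 985 reads per Control library against 49 to 66 of Tnfrsf12a, and it did not pass (-0.24 ± 0.12, adjusted p = 0.107).

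The feeding comparison asked whether these transcripts differed between CKD TRF and CKD. None of the 10 genes passed in limma, at an adjusted or an unadjusted p below 0.05 (0 genes each). Of all tested genes 0% were called, and 890 had an unadjusted p below 0.05. In limma voom on the recovered reads again none of the 10 and none of all genes was called, while Nfkbie, Tnfrsf1b and Relb had an unadjusted p below 0.05. The 10 changes ran from -0.40 ± 0.20 (Nfkbie) to 0.21 ± 0.21 (Tnfrsf12a), with 7 below 0 and 3 above and a median of -0.10, beside -0.01 over all tested genes. The sign of 6 of these changes (Nfkb2, Nfkbia, Rela, Relb, Tnfaip3 and Tnfrsf1a) was not the same under all alternatives. CKD TRF and CKD overlapped for each of the 10 genes, beside 4.5% of tested genes whose groups did not overlap in either direction. The intervals bound the differences: that of Tnfrsf1a ran from -0.20 to 0.21, that of Relb from -0.83 to 0.16 and that of Tnfrsf1b from -0.57 to 0.11.

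Against Control, 8 of the 10 genes rose in CKD TRF, with all but Tnfaip3 and Tnfrsf12a past the threshold, and none fell. The same number, 8, had CKD TRF libraries that all lay above Control. Of all tested genes 19.5% rose and 16.3% had CKD TRF libraries that all lay above Control, and the median change was 0.84 for the 10 genes and 0.01 for all tested genes. This comparison shares its Control libraries with that of CKD. With CKD TRF 2 as the only CKD TRF library, after leaving out the 5 with fat markers, 4 rose (Relb, Nfkbie, Tnfrsf1a and Tnfrsf1b). The 4 lost were Nfkbia (0.71 ± 0.27, limma adjusted p = 0.102), Rela (0.55 ± 0.22, 0.130), Nfkb2 (0.82 ± 0.33, 0.131) and Nfkb1 (0.79 ± 0.39, 0.216). With fat and urothelium markers as a covariate 6 rose, without Rela and Nfkb1.

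**Figure D3:**
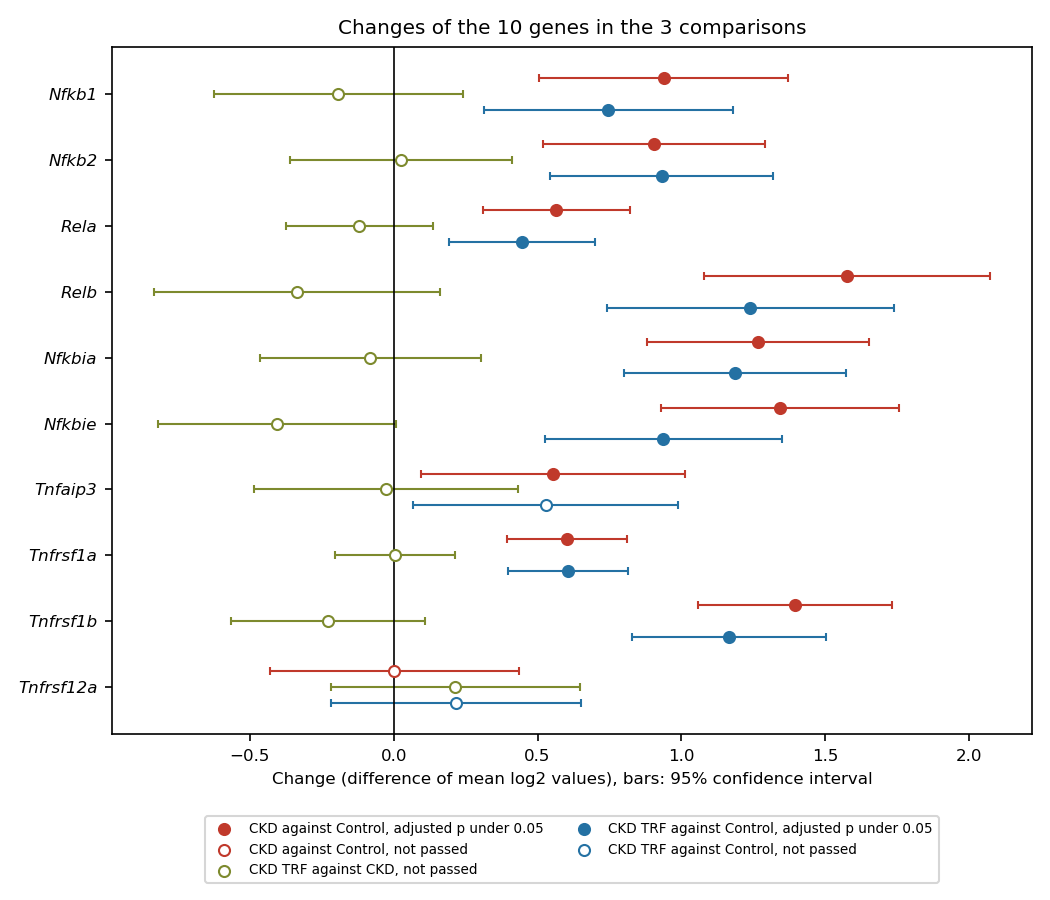
Change of each of the 10 genes (y axis) as a difference of mean log2 values (x axis) with its 95% confidence interval, for CKD against Control (red), CKD TRF against CKD (green) and CKD TRF against Control (blue). Filled points passed an adjusted p of 0.05: 9 for CKD against Control, 0 for CKD TRF against CKD and 8 for CKD TRF against Control. The largest change is that of Relb, at 1.57, and the green intervals all include 0.

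Genes around these 10 in the pathway were counted in 6 lists, beside 23.6% of all tested genes that rose and 21.8% that fell in CKD against Control. The lists were also chosen with earlier results of these data known. For the ligands of the 3 receptors, Tnf had 0 to 5 reads per Control library, 4 to 21 per CKD library and 0 to 18 per CKD TRF library, and Lta had 0, 0 to 3 and 0 to 6. Both were below the level needed for testing. Tnfsf12, the TWEAK ligand of Tnfrsf12a, had 121 to 312 reads and stood at 0.07 ± 0.18 in CKD against Control (limma adjusted p = 0.792). Of 19 TNF family ligands with the shedding protease Adam17, 10 were tested, of which 5 rose, 1 fell (Adam17, at -0.34) and 4 did not pass in CKD (median change 0.50). Eda and Ltb averaged 0.344 and 0.457 scaled reads in Control, and Tnfsf8 had no read there. These genes entered the test through their diseased libraries, so this count and median lean toward rises. Tnfsf13b, the B cell survival factor BAFF, rose by 2.27 ± 0.25, from 1.42 ± 1.13 to 9.97 ± 1.64 scaled reads. Tnfsf8, the ligand of the receptor CD30, had no read in the 4 Control libraries and 2.85 ± 0.634 scaled reads in CKD. That is at least 9.29-fold higher than 3 reads per Control library. The lymphotoxin chain Ltb rose by 0.83 ± 0.25 and Eda, the ligand ectodysplasin, by 0.92 ± 0.26. After quantile normalization, and likewise without the 5 libraries that held fat markers, 2 rose (Tnfsf8 and Tnfsf13b) and 0 fell, and with equal sums 6 rose and 0 fell.

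Of the 25 other TNF receptor family members 13 were tested, and in CKD 6 rose, 2 fell and 5 did not pass (median 0.53). Tnfrsf18, Tnfrsf19, Eda2r and Tnfrsf4 averaged 0.161 to 0.455 scaled reads in Control. They reached the level needed for testing through their diseased libraries, so this count and median lean toward rises. Tnfrsf19, an orphan receptor, rose by 2.42 ± 0.34, from 0.268 ± 0.319 to 6.14 ± 3.12 scaled reads. Tnfrsf18 and Tnfrsf4, which are costimulatory receptors of T cells, rose by 1.53 ± 0.25 and 0.84 ± 0.28, and Eda2r, an ectodysplasin receptor, by 0.91 ± 0.26. Those that fell were Ltbr, the lymphotoxin beta receptor that feeds the alternative pathway (-0.74 ± 0.11, limma adjusted p = 2.2e-05), and Tnfrsf21 (-0.45). Ltbr went from 161 ± 15.1 scaled reads in Control to 95.6 ± 4.57 under CKD and 104 ± 17.1 under CKD TRF (SD, n = 4), with all diseased libraries below Control. The fall of Ltbr was called under each of 3 other scalings. After quantile normalization 2 of the 13 rose (Tnfrsf18 and Tnfrsf19) and 1 fell, and without the 5 fat-bearing libraries 4 rose and 2 fell, with Eda2r among those lost. With equal sums 7 rose and 1 fell.

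Most of the kinases did not pass. Of 12 IkB kinases and kinases or adaptors above them 2 rose, 2 fell and 8 did not pass in CKD (median 0.12), each share below that of all tested genes. Tank and Tab2, adaptors of these kinases, rose by 0.47 ± 0.16 and 0.40 ± 0.12, whereas Azi2 and Chuk, the catalytic IkB kinase subunit alpha, fell by 0.32 ± 0.10 and 0.30 ± 0.11. The catalytic subunit Ikbkb, the regulatory subunit Ikbkg and the kinase of the alternative pathway Map3k14 did not pass, at 0.22 ± 0.11, 0.14 ± 0.16 and 0.32 ± 0.23. These counts moved with the scaling: 4 rose and 0 fell with equal sums, 1 rose and 1 fell after quantile normalization (median -0.06), and 0 passed without the libraries that held fat markers. Of 28 tested receptor adaptors, ubiquitin ligases and brakes 7 rose, 3 fell and 18 did not pass (median 0.12), shares near or below those of all tested genes. The RNA-destabilising protein Zfp36 rose by 1.15 ± 0.32, the ubiquitin ligase Birc3 by 1.04 ± 0.19, the necroptosis effector Mlkl by 0.90 ± 0.24 and the adaptor Traf1 by 0.88 ± 0.28. Those that fell were Casp8 (-0.49), Tnfaip8 (-0.46) and Tax1bp1 (-0.43). Ripk3, which also rose, averaged 0.206 scaled reads in Control and reached the level needed for testing through its diseased libraries. With equal sums 14 rose and 0 fell, after quantile normalization 2 rose and 2 fell, and without the 5 fat-bearing libraries 2 rose and 1 fell. Birc3 was called in each. Mlkl and Traf1 lost the call after quantile normalization and without the fat-bearing libraries, and Zfp36 lost it without those libraries.

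Of 10 other Rel and IkB genes 3 rose, 3 fell and 4 did not pass in CKD (median 0.17). Those that rose were the atypical IkB genes Nfkbiz (1.30 ± 0.22) and Bcl3 (0.67 ± 0.17), and Rel, the subunit of lymphoid cells (0.88 ± 0.26). Commd1, known to promote the removal of Rela from chromatin, fell by 1.02 ± 0.15, from 64.5 ± 11.3 to 31.0 ± 2.92 scaled reads, and Nfkbib, a further IkB gene, fell by 0.57. Nkiras1 fell as well, by 0.35 ± 0.11. After quantile normalization 2 rose and 2 fell, without Rel, and the median was -0.02. With equal sums, and likewise leaving out the 5 fat-bearing libraries, 3 rose and 2 fell.

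Of 33 genes known as NF-kB targets 28 were tested and 5 were too low to test. In CKD 23 of the 28 rose, 1 fell (Sod2, at -0.44) and 4 did not pass, with a median change of 1.20. Lcn2 and Cxcl2 averaged 0.593 and 0.182 scaled reads in Control. They reached the level needed for testing through their diseased libraries, so this count and median lean toward rises. Lcn2, a secreted protein of injured tubules, rose by 3.82 ± 0.27, the complement protein C3 by 3.14 ± 0.24, the adhesion molecule Vcam1 by 2.40 ± 0.18 and the monocyte attractant Ccl2 by 2.33 ± 0.21. The number that rose was 21 to 25 under 3 other scalings and without the 5 fat-bearing libraries, and Sod2 lost its call under 2 of these scalings. Birc3, Traf1, Nfkbiz and Bcl3 stand in this list and in another. In CKD TRF against CKD none of the genes of these 6 lists passed, with medians from -0.18 (targets) to 0.04 (other receptors). In CKD TRF against Control 23 of the 28 targets rose and 1 fell (median 0.99), 5 and 1 of the 10 ligands (0.40), 4 and 2 of the 13 receptors (0.44), 5 and 2 of the 28 adaptors (0.02), 2 and 3 of the 10 Rel and IkB genes (0.31), and 0 and 1 of the 12 kinases (0.04). With CKD TRF 2 as the only CKD TRF library, 15 targets, 2 ligands, 3 receptors, 1 adaptor and 0 of the Rel and IkB genes and kinases rose, while 2 receptors and 2 Rel and IkB genes fell. Of all tested genes 19.5% rose and 17.9% fell in CKD TRF against Control with all libraries.

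**Figure D4:**
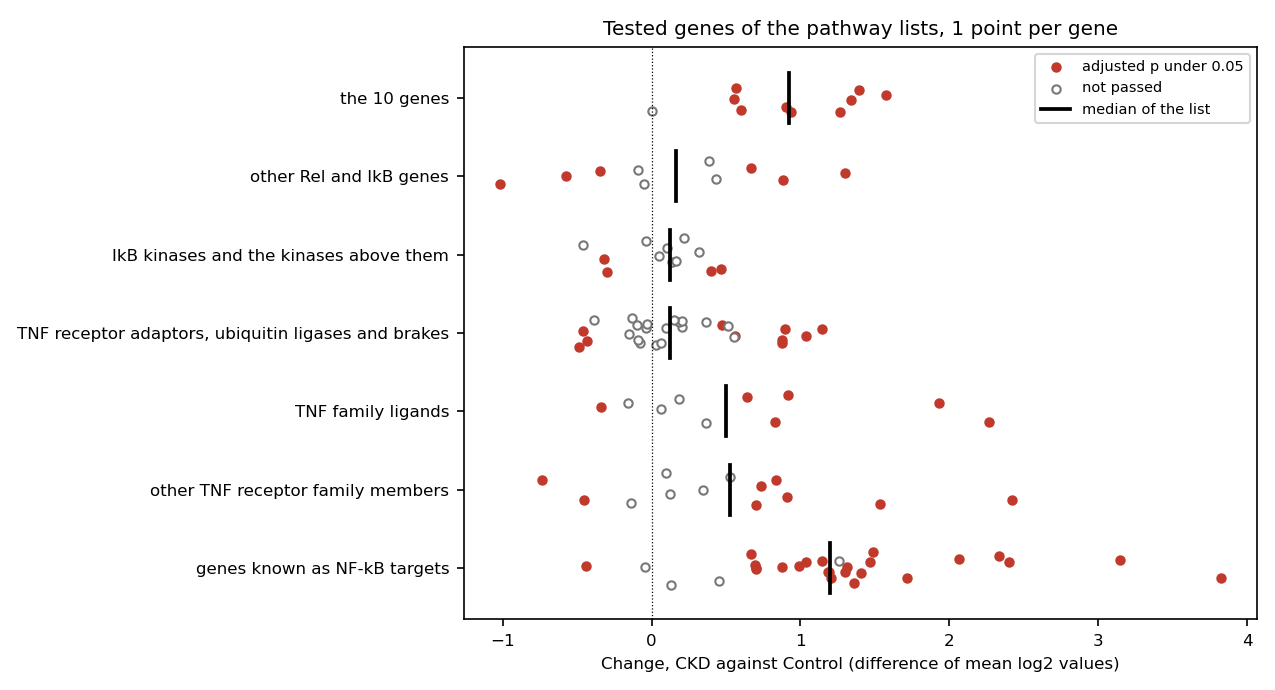
Change in CKD against Control as a difference of mean log2 values (x axis) for the 10 genes and for the tested genes of 6 pathway lists (y axis), with 1 point per gene and a bar at the list's median. Filled points passed an adjusted p of 0.05. The medians are 0.92 for the 10 genes, 0.12 for the kinases, 0.12 for the adaptors and 1.20 for the NF-kB targets, and each of the 6 lists has points on both sides of 0.

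Markers of other cell types moved with these genes, and their part in the changes was not tested. In whole tissue RNA, more cells of a type and more RNA per cell cannot be told apart. All 3 leukocyte markers rose in CKD, with sums of 21.6 to 33.9 scaled reads for Control, 83.0 to 102 for CKD and 68.04 to 93.9 for CKD TRF. All 9 macrophage markers rose (141 to 165, 432 to 571 and 423 to 494 in the same order). So did all 5 fibroblast markers (143 to 166, 814 to 907 and 661 to 788) and all 7 markers of injured tubule (220 to 365, 686 to 719 and 568 to 751), a list that also holds Lcn2 and Vcam1. Of 5 T cell markers tested 4 rose (2.21 to 3.27, 9.05 to 16.1 and 8.70 to 12.3). Cd4, Cd3e and Cd8a averaged 0.149, 0.495 and 0.546 scaled reads in Control and were tested through their diseased libraries, so this count leans toward rises. Of the 5 endothelial markers 2 rose (177 to 222, 200 to 282 and 239 to 302). Neither of the 2 tested neutrophil markers passed, and the neutrophil gene Mpo was at 0 in all libraries. All 7 tested urothelium markers rose, from 4.39 to 15.3 scaled reads for Control, to 32.2 to 157 under CKD and 40.7 to 134 under CKD TRF. For the proximal tubule 2 of 5 markers fell (5091 to 6876, 4196 to 4725 and 4489 to 5790). In CKD against Control 2 of 2 thick limb, 2 of 2 distal tubule, 1 of 2 collecting duct and 1 of 2 podocyte markers rose. Of 2 tested B and plasma cell markers, Jchain rose and Cd79b did not pass (-0.27 ± 0.26).

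The tested genes whose levels were most like those of Relb over the 12 libraries were Psd (Pearson r = 0.971), Adgre5 (0.970) and Lpcat2 (0.967). For Tnfrsf1b they were Fn1, fibronectin (0.994), Map3k1 (0.991) and Col6a2, a collagen chain (0.986). These correlations hold the difference between Control and the diseased groups, and the points share library and depth. After subtracting group means, those most like Relb were Pear1 (0.917), Zmym1 (0.912) and Adam15 (0.882), and those most like Tnfrsf1b were Zbtb44 (0.955), Fn1 (0.942) and Ctbp2 (0.937). Among the 10 genes themselves, Tnfrsf1a and Tnfrsf1b had r = 0.915 over the 12 libraries and -0.02 after subtracting group means, and Nfkbie and Relb had 0.922 and 0.628.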

How the data were processed

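Each library's file held 1 deposited log2 value per gene, scaled by the authors in a way that is not given in the sources used here. The submitters' processing notes name Bowtie2, bedtools and the build mm10, with no version and no role. Per the labels' protocols, 500 ng of total RNA went into each library. The deposited values had the form log2(scaled reads + 1), as read from the values themselves. Among values below 20 scaled reads, 98.2% to 100% per library were whole reads to within 0.1, and from these steps depth and reads were recovered. A count of 0 allows up to 3 reads, worth 0.168 to 0.306 scaled reads, for counting error only.

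For 35 symbols with more than 1 entry the highest was kept. The upper 60% of genes by mean log2 value (at least 0.729) were tested with limma 3.58.1 (R 4.3.3), with a mean per group and a spread that follows the level, two-sided, with Benjamini-Hochberg adjustment at 0.05. Differences between pairs of the 10 genes were tested by exact permutation over libraries. The fit was also run on simulated log2 values with independent noise and few changed genes. That setting differs from these libraries, where many genes changed, so it does not measure the error of the calls made here. Gene positions are from GENCODE M21. The 10 genes, the lists and the rules were chosen with earlier results of these data known. Named from each list were the 4 members with the largest change past 0.05 in CKD against Control; other list genes named (the remaining ones that fell, ligands of the receptors, kinases) were chosen after their values were seen. Likeness was named for the 2 genes with the largest change and, chosen after its values were seen, for Nfkbia within groups. Filters, scalings, voom on recovered reads, covariates and left-out libraries were tried as alternatives.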

Additional observations from a re-analysis of the deposited data

Results flagged for a closer look

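Nfkbia in CKD TRF 2 was 8.09 on the log2 scale, while the other 3 CKD TRF libraries lay between 8.68 and 8.78. The gap to the nearest library was 0.852 of the group's range, above Dixon's 95% critical value for 4 samples. It was the only such case among 30 gene groups tested (10 genes in 3 groups), where chance gives about 1 in 20. Without CKD TRF 2 the gene was called in CKD TRF against Control as before.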

How the results depend on the processing

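In 26 alternatives per comparison, 749 of 771 values for single genes among the 10 kept their side of the threshold, 19 lost the call and 3 gained it. The sign differed from that reported in 36 of the 771, 24 of them in CKD TRF against CKD and the other 12 for Tnfrsf12a, and 0 of the 36 were called in the reported fit. Of the 10 genes, 7 to 9 were called in CKD against Control, 0 in CKD TRF against CKD, and 6 to 9 in CKD TRF against Control except for 4 without the 5 libraries that held fat markers. The 7 came from testing the upper 40% of genes, which left out Nfkb1, Tnfaip3 and Tnfrsf12a. Over all genes the counts were 4007 and 3003 once fat and urothelium markers entered as a covariate, and 4037 and 1478 after leaving out the fat-bearing libraries, for CKD and CKD TRF against Control, beside 6333 and 5225. In CKD TRF against CKD, 1 gene was called without a filter on level, and 0 to 1 when leaving out 1 library (1 without CKD TRF 1). The cause of these differences was not tested. Of the pathway lists no called gene changed sign under 3 other scalings or without the fat-bearing libraries. After median centring, 23 targets, 6 receptors, 5 ligands, 5 adaptors, 3 Rel and IkB genes and 1 kinase rose in CKD against Control, and 1, 2, 1, 4, 3 and 2 fell. In CKD TRF against Control the 3 scalings gave 20 to 25 targets that rose. Median centring shifted changes against Control by -0.104 (CKD) and -0.079 (CKD TRF), so that 40.3% and 41.6% of called genes were higher beside 52.1% each. Equal sums shifted them by 0.206 and 0.131 (76.3% and 71.9% higher).

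Libraries of the same number did not deviate together (correlations of -0.179 to 0.11, and 2 of 12 libraries correlated best with their own number). With the replicate number as a block, 8 of the 10 genes were called in CKD against Control (Tnfaip3 at adjusted p = 0.0704), 0 in CKD TRF against CKD and 8 in CKD TRF against Control. Depth limits Tnfaip3, with 17 to 67 reads per library, and Tnf and Lta, which were too low to test.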
